A study of Mus musculus with 4 samples.

Results

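A set of 10 genes of antioxidant defense and metal binding was described across primary tumor and lung sections of mice carrying 4T1 tumors. The genes were Mt1, Mt2, Hmox1, Nqo1, Slc7a11, Gclc, Gclm, Txnrd1, Gpx3 and Sod3, out of 19465 genes in the count tables. They were chosen by gene symbol, with their section levels in primary tumor and lung already known, so those levels are given as a description and carry no test. All 10 symbols were found, and each matched 1 gene only. The sections came from 2 BALB/c mice, Mouse_627 and Mouse_628. At 8 weeks of age each received 100000 4T1 cells in a mammary fat pad, and tissue was taken after 28 days. 4T1 is an established BALB/c breast cancer line, used because it seeds lung metastases. Each mouse gave 1 primary tumor (PT) section and 1 lung section, so n = 2 per tissue, all 4 sections came from tumor-bearing animals, and a lung of an animal without tumor was not analysed here. The tissue was fixed and embedded in paraffin, and RNA was read through the 10x Visium mouse probe kit, in which probe pairs are counted by unique molecular identifiers (UMIs) on an array of spots. A spot is a small area that may cover several cells, also of unlike types.

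Metallothioneins are small cysteine-rich proteins that hold zinc and copper, and their genes respond to metals, glucocorticoids and hypoxia. Glutathione, built by the glutamate-cysteine ligase from cysteine that the cystine transporter brings in, and the thioredoxin system together reduce peroxides inside the cell, and many of their genes are targets of the factor NRF2. The secreted enzymes glutathione peroxidase 3 and extracellular superoxide dismutase act outside the cell and in plasma, and the lung is a tissue rich in the latter.

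Mt1 and Mt2, the pair of the set with the highest correlation over spots, lie next to each other on mouse chromosome 8, both on the plus strand. In GRCm38 with the GENCODE M21 annotation Mt2 spans chr8:94172664-94173568 and Mt1 spans chr8:94179082-94180327, with 5513 bases between them. The 250 bases before each RefSeq start (GRCm38.p6, plus strand, 5′ to 3′) are printed because the levels of both genes ran together over spots. Capitals mark matches to the core of the metal response element, searched as TGCACNC or TGCGCNC on both strands. The Mt1 window is chr8:94178839-94179088 and the Mt2 window is chr8:94172368-94172617.
Mt1: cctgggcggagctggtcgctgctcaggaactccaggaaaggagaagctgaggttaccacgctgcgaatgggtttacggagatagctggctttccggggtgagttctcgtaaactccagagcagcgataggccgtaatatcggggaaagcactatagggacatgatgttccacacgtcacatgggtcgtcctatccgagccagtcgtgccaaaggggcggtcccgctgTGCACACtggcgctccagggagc
Mt2: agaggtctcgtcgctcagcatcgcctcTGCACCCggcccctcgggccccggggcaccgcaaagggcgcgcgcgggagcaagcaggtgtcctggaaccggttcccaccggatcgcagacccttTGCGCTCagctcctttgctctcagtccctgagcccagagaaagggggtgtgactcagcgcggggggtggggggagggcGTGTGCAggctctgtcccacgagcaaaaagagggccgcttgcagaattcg

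The Mt1 window held 1 match and the Mt2 window 3, of which 1 lay on the minus strand and overlapped a hypoxia response core (ACGTG or GCGTG). Such a metal response core occurred in 21.4% of all 32851 RefSeq promoter windows of this length, and a hypoxia response core in 38.6%. The hypoxia core matched 2 times in the Mt1 window and 1 time in the Mt2 window. Neither core was limited to the metallothioneins, since Gclm had 2 metal response and 4 hypoxia matches and each of the 3 windows of Txnrd1 had 1 hypoxia match. The antioxidant response core TGACNNNGC, found in 10.2% of all windows, matched 1 time in Mt2 and in 1 of the 3 windows of Txnrd1, and 1 time in Gclm. RefSeq windows were matched for 7 of the 10 genes, Hmox1, Gclc and Sod3 being the other 3. A match of letters is a description and not a bound site. Neither the Mt1 nor the Mt2 window held TATA near its 3′ end, and bases after the RefSeq starts were not searched. The counts may therefore miss sites of either promoter and do not rank Mt1 against Mt2.

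Of 9445 spots under tissue, 9339 with more than 200 detected genes were kept. The kept spots held between 10890154 and 30240176 UMIs per section, and the median spot held 2931 UMIs in PT627, 1820 in PT628, 6555 in Lung627 and 9174.5 in Lung628. Levels are given in CPM, a gene's UMIs relative to all UMIs of the same spots. Tissue markers followed the labels: 7 alveolar markers summed to 11.97 and 47.9 CPM in the PTs and to 13036 and 7407 CPM in the lungs. The 7 4T1-associated markers (Csf3, Mmp3, Plau, Hmga2, Mmp13, Timp1 and Cxcl1) summed to 4547 and 5282 CPM in the PTs, 115 CPM in Lung627 and 1212 CPM in Lung628. They did not move together. In Lung628 Plau had 304 CPM against 304 and 243 CPM in the PTs, and Timp1 71.6 against 104 and 68.9 CPM. Csf3, Mmp3, Hmga2, Mmp13 and Cxcl1 were lower there than in both PTs. The background of the assay was read from 1178 olfactory and vomeronasal receptor genes, whose 95th percentile was 1.70 CPM in PT627, 19.0 CPM in PT628, 0.54 CPM in Lung627 and 0.40 CPM in Lung628. PT628 thus stood apart, and Nqo1, Gpx3 and Sod3 lay under this background level there. In all sums over spots, fewer cells of a type and less RNA per cell cannot be told apart.

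The metallothioneins were lower in both lungs than in both PTs. Mt1 had 1764 CPM in PT627, 3201 CPM in PT628, 205 CPM in Lung627 and 707 CPM in Lung628. Mt2 had 1689, 2741, 133 and 596 CPM in the same order. Both PTs lay above both lungs for either gene, and within each tissue Mouse_628 had the higher level. Per spot, the median of Mt1 was 1551 CPM in PT627 and 2175 CPM in PT628, against 119 CPM in Lung627 and 589 CPM in Lung628. Mt1 averaged 2483 ± 1016 CPM (SD, n = 2) in the PTs and 456 ± 355 CPM (SD, n = 2) in the lungs. The mean log2 ratio of lung over PT within a mouse was -2.64 for Mt1 and -2.93 for Mt2.

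Hmox1, which encodes the inducible heme oxygenase that breaks heme into iron, carbon monoxide and biliverdin, had 347 and 306 CPM in the PTs and 71.4 and 130 CPM in the lungs. The groups did not overlap, and the mean log2 ratio of lung over PT was -1.76. Nqo1, a quinone reductase and common readout of NRF2, was low everywhere, with 9.61 and 12.2 CPM in the PTs and 12.3 and 8.99 CPM in the lungs. Its groups overlapped, and it rested on 130, 133, 137 and 272 UMIs per section.

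The genes of glutathione supply split. Slc7a11, the cystine and glutamate exchanger, had 34.9 and 23.6 CPM in the PTs and 7.01 and 7.57 CPM in the lungs, with no overlap and a mean log2 ratio of -1.98. In PT628 its level was 1.24 times the background percentile. Gclc, the catalytic subunit of glutamate-cysteine ligase, had 80.7 and 65.8 CPM in the PTs and 87.6 and 88.3 CPM in the lungs. Gclm, the modifier subunit, had 104 and 103 CPM in the PTs and 108 and 115 CPM in the lungs. Both subunits were thus slightly higher in the lungs without overlap, with mean log2 ratios of 0.27 and 0.11. Txnrd1, the cytosolic thioredoxin reductase, had 171 CPM in PT627, 135 CPM in PT628, 63.1 CPM in Lung627 and 168 CPM in Lung628, so that its groups overlapped and the lungs differed from each other more than the PTs did.

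The secreted enzymes had the reverse order of the metallothioneins. Gpx3, the plasma glutathione peroxidase, had 10.3 and 6.15 CPM in the PTs and 974 and 837 CPM in the lungs. Its lung level was 94.8 times the PT level in Mouse_627 and 136 times in Mouse_628, resting on 139 and 67 UMIs in the PTs. Sod3, the extracellular superoxide dismutase, had 19.4 and 7.99 CPM in the PTs and 216 and 118 CPM in the lungs, 11.1 and 14.8 times the PT level. Since both genes lay under the background percentile in PT628, the ratios of Mouse_628 compare the lung with a level that this section could not tell from background.

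**Figure D1:**
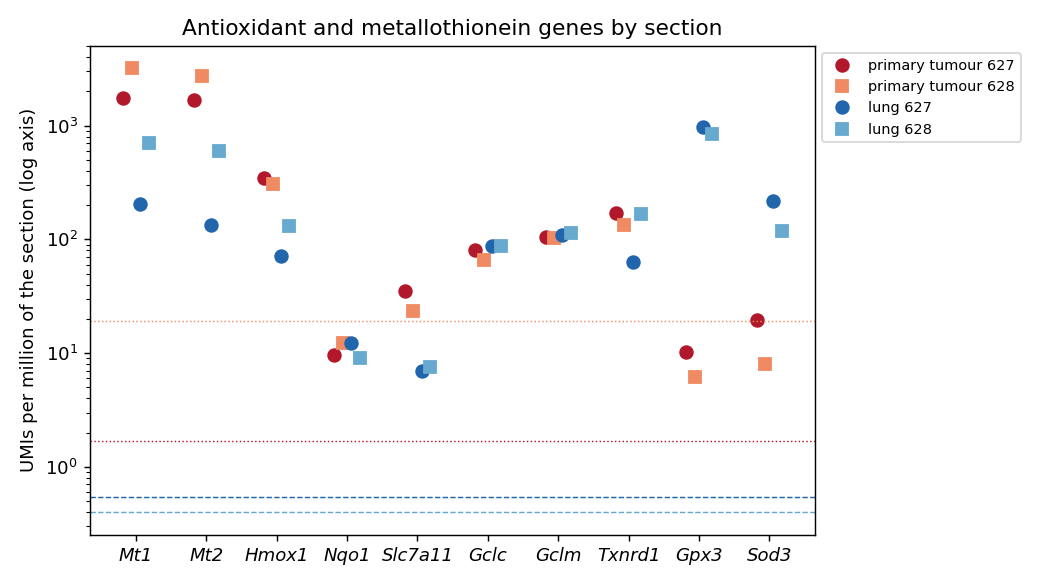
Level of each gene in each section, in CPM on a log axis. Circles mark Mouse_627 and squares Mouse_628, red the PTs and blue the lungs, and the horizontal lines give the receptor-gene background of each section (dotted for PTs, dashed for lungs). Mt1, Mt2, Hmox1 and Slc7a11 were higher in both PTs and Gpx3 and Sod3 higher in both lungs.

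In all, 4 of the 10 genes were lower in both lungs than in both PTs, 4 were higher and 2 overlapped. Over 15154 genes with at least 100 UMIs, 38.6% were lower and 21.3% higher in this sense, and since this contrast chose the genes nothing is read from the counts. CPM also shifted all genes: the median log2 ratio of lung over PT was -0.27 over 15024 genes. Relative to that median, Mt1 was at -2.37, Mt2 at -2.66, Hmox1 at -1.49, Slc7a11 at -1.71, Txnrd1 at -0.29, Nqo1 at 0.23, Gclm at 0.37, Gclc at 0.54, Sod3 at 3.95 and Gpx3 at 7.10. Nqo1 was the gene whose direction depended on the scaling, with -0.04 by CPM and 0.29 by the trimmed mean of M values (TMM).

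Other genes of these pathways came from a list of 63, of which 57 were matched in the tables and 56 had enough counts to be tested between lung and PT with edgeR (quasi-likelihood test, Benjamini-Hochberg adjustment over all genes). Without a block for the mouse, 11 of the 56 rose in lung and 0 fell at an adjusted p under 0.05, beside 6.31% of all genes tested that rose and 1.15% that fell. With the mouse as a block 14 rose and 3 fell, beside 9.17% and 2.73% of all genes. Without the block their median log2 fold change was 0.39 and that of all genes -0.005. The largest rises were those of Gsta3 and Gstm1, 2 glutathione S-transferases, and of Ggt1, which cleaves extracellular glutathione. Ggt1 had 1.77 and 19.2 CPM in the PTs and 220 and 112 CPM in the lungs (edgeR log2 fold change 4.38 ± 0.92 (SE), adjusted p = 0.0227). Gstm1 had 5.25 and 6.43 CPM in the PTs and 134 and 43.9 CPM in the lungs (4.30 ± 0.63, edgeR adjusted p = 0.00657). Gsta3 had 0.22 and 5.23 CPM in the PTs and 59.9 and 39.5 CPM in the lungs (4.58 ± 0.98, edgeR adjusted p = 0.0246). In PT628 all 3 lay near or under the receptor-gene background of 19.0 CPM, and in PT627 Gsta3 lay under and Ggt1 near that of 1.70 CPM, so the sizes and the order of these rises rest in part on PT levels that could not be told from background. The 3 genes that fell with the block were Maff, a small MAF partner of NRF2, Gpx8, a peroxidase of the endoplasmic reticulum, and Slc39a14, a zinc importer, with edgeR adjusted p-values of 0.00446, 0.0278 and 0.0278. Without the block their edgeR adjusted p-values were 0.0944, 0.27 and 0.255.

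The next comparison asked how the genes differed inside the PTs between areas rich and poor in hypoxia markers. Spots of each PT were ranked by their share of UMIs on 10 hypoxia markers (Car9, Ndrg1, Egln3, Bnip3, Vegfa, Slc2a1, Ankrd37, Pdk1, Adm and P4ha1), and the highest quartile was set against the lowest. Mt1 had 2151 CPM in the rich and 1263 CPM in the poor quartile of PT627, and 4392 and 1565 CPM in PT628. Mt2 had 1915 and 1326 CPM in PT627, and 3789 and 1182 CPM in PT628. Hmox1 had 448 and 246 CPM in PT627, and 332 and 208 CPM in PT628. All 3 genes were thus higher in the rich quartile of both tumors, Mt1 by 1.70 and 2.81 times, Mt2 by 1.44 and 3.21 times and Hmox1 by 1.82 and 1.59 times.

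The test over the 2 mice did not call these differences. The edgeR log2 fold change was 1.34 ± 0.34 (SE) for Mt1, 1.30 ± 0.35 for Mt2 and 0.90 ± 0.32 for Hmox1, with unadjusted p-values of 0.00588, 0.0072 and 0.0259 and an adjusted p of 0.942 for each. Among 13938 genes 0 were called in either direction (0%), 257 having an unadjusted p under 0.05, while DESeq2 called 20. With the mouse as a block edgeR called 28 higher (0.201%) and 57 lower (0.409%), and the adjusted p was 0.304 for Mt1, 0.314 for Mt2 and 0.248 for Hmox1. DESeq2 without the block gave an adjusted p of 0.000509 for Mt1, 0.00102 for Mt2 and 0.147 for Hmox1, so the call of the metallothioneins depended on the tool.

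Over deciles of spots with rising hypoxia-marker share the 3 genes were higher in the highest than in the lowest decile, with falls between some neighboring deciles. Mt1 went from 980 CPM in the lowest to 2369 CPM in the highest decile of PT627, and from 1283 to 4930 CPM in PT628. Mt2 went from 1047 to 2064 CPM and from 924 to 4172 CPM. Hmox1 went from 193 to 493 CPM and from 182 to 366 CPM. For the metallothioneins the tumors lay closer together in the lowest decile than in the highest.

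**Figure D2:**
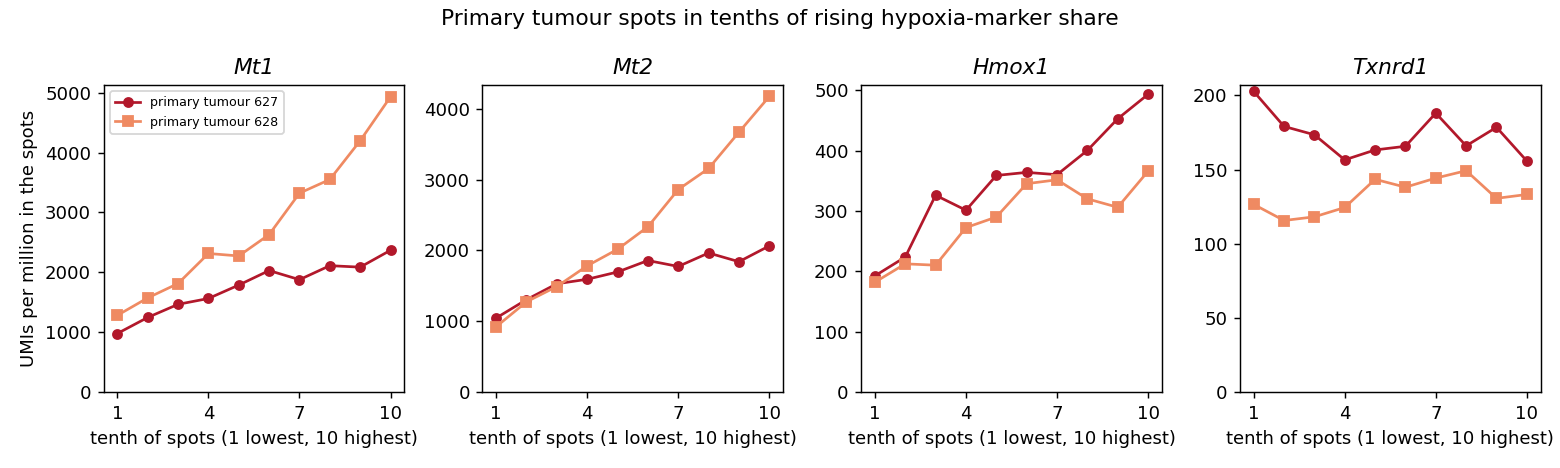
Level of Mt1, Mt2, Hmox1 and Txnrd1 in deciles of PT spots ordered by their share of hypoxia-marker UMIs, from 1 (lowest) to 10 (highest), in CPM. Circles are PT627 and squares PT628. Mt1 reached 2369 and 4930 CPM in the highest decile, while Txnrd1 had 156 and 133 CPM there against 203 and 127 CPM in the lowest.

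Depth and other cell types moved with the ranking. The median spot of the rich quartile held 2093 UMIs in PT627 and 2468 in PT628, against 677.5 and 1446 in the poor quartile. The poor quartile of PT627 had a median of 1 hypoxia-marker UMI per spot, and 184 of its 622 spots had none. In PT628 the median was 3, and 32 of 593 spots had none. Some spots may thus have been placed there by their low depth. Neutrophil markers summed to 3514 CPM in the rich and 1740 CPM in the poor quartile of PT627, and to 8715 and 10916 CPM in PT628. Macrophage markers went the other way in PT627, with 1608 and 2783 CPM, and had 515 and 452 CPM in PT628. Other lists differed the same way in both tumors. Tumor markers were higher in the rich quartile, with 4824 and 4142 CPM in PT627 and 5692 and 3214 CPM in PT628. Endothelial markers were lower, with 175 and 251 CPM in PT627 and 104 and 157 CPM in PT628, and airway, erythroid, epidermal, lymphoid and proliferation markers were lower in both as well. Alveolar, cardiac and adipose markers, which were low in the PTs, were lower in the rich than in the poor quartile of PT628, with 32.8 and 106 CPM, 37.7 and 98.2 CPM, and 41.0 and 103 CPM. The metallothioneins also differed with depth itself. From the shallowest to the deepest quartile of spots, Mt1 had 1772, 1916, 2631 and 3582 CPM in PT628 and 1195, 1506, 1950 and 1734 CPM in PT627. Mt2 had 1230, 1193, 1721 and 3240 CPM in PT628 and 1224, 1214, 1876 and 1675 CPM in PT627. The part of depth and of these markers in the result was not tested. With spots of at least 1000 UMIs alone the edgeR log2 fold changes were 1.30 for Mt1, 1.24 for Mt2 and 0.81 for Hmox1, and the median depths of rich and poor spots were 5394 and 7896 UMIs in PT627 and 2516 and 1471 in PT628.

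The other 7 genes differed less or in no common direction between hypoxia-rich and hypoxia-poor spots. Gclm, Gclc and Gpx3 were higher in both tumors by log2 ratios from 0.08 to 0.30, and Sod3 was lower by 0.30 and 0.58. Txnrd1 had 169 and 181 CPM in PT627, and 134 and 119 CPM in PT628. Slc7a11 had 33.7 and 33.3 CPM in PT627 but 16.7 and 35.7 CPM in PT628, and Nqo1 likewise had 8.93 and 23.8 CPM in PT628. In PT628 the values of Nqo1 and Slc7a11 lie on both sides of the background percentile of 19.0 CPM, under it in the rich quartile. Those of Gpx3, with 27 and 8 UMIs, and of Sod3, with 31 and 15 UMIs, lie under it, so their directions there are not told from background. In all, 6 of the 10 genes were higher in the rich quartile of both tumors and 1 lower, beside 16.1% and 38.9% of 13397 genes, Gpx3 being among the 6 and Sod3 the 1. Of 54 pathway genes tested edgeR called 0 with or without the block, and their median log2 fold change was 0.12, all genes having -0.16.

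Inside the lungs, spots rich in the 7 tumor markers were set against spots poor in them, to see how the genes differed with the tumor-marker share. The lungs were not equal in this respect. In Lung627, 1079 of 1697 spots held no tumor-marker UMI, and the rich quartile carried 398 CPM of tumor markers, whereas in Lung628 it carried 2185 CPM. Alveolar markers were 12124 and 12744 CPM in the rich and poor quartile of Lung627 but 2745 and 12581 CPM in Lung628, and neutrophil markers were 61561 and 80160 CPM in Lung627 and 6447 and 67326 CPM in Lung628. Fibroblast markers were higher in the rich quartile of both, with 1239 and 662 CPM in Lung627 and 2127 and 1166 CPM in Lung628, as were macrophage markers, with 786 and 480 CPM and with 1447 and 632 CPM, and proliferation markers, with 439 and 216 CPM and with 1451 and 361 CPM. Endothelial markers were lower in both, with 1433 and 1637 CPM and with 353 and 1325 CPM, as were erythroid markers, with 1904 and 2444 CPM and with 297 and 2030 CPM, and lymphoid markers, with 148 and 159 CPM and with 17.8 and 61.6 CPM. Other lists went opposite ways in the lungs. Airway markers had 1581 and 1397 CPM in Lung627 but 137 and 1868 CPM in Lung628. Cardiac markers had 373 and 306 CPM in Lung627 but 304 and 564 CPM in Lung628. Hypoxia markers had 681 and 757 CPM in Lung627 but 1236 and 534 CPM in Lung628. In Lung627 as a whole Vegfa gave 304 and Car9 2.16 of the 680 CPM of this list. In Lung628 they gave 85.6 and 96.3 of 839 CPM. Adipose, smooth muscle and epidermal markers also went opposite ways. The part of these in the results was not tested.

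The secreted enzymes separated the lungs. Gpx3 had 920 CPM in the rich and 979 CPM in the poor quartile of Lung627, and 345 and 1462 CPM in Lung628. Sod3 had 230 and 193 CPM in Lung627, and 52.3 and 177 CPM in Lung628. In Lung628 both were thus lower where tumor markers were high, to 0.236 and 0.295 times the level of the poor quartile, while in Lung627 the ratios were 0.94 and 1.19. Over deciles of Lung628 Gpx3 went from 1414 CPM in the lowest to 260 CPM in the highest, and Sod3 from 171 to 43.3 CPM. Both levels were still above those of the PTs, where Gpx3 had 10.3 and 6.15 CPM.

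Txnrd1 and Hmox1 were higher in the tumor-marker-rich quartile of both lungs. Txnrd1 had 83.2 and 61.3 CPM in the rich and poor quartile of Lung627, and 229 and 94.6 CPM in Lung628. In the highest decile it reached 107 CPM in Lung627 and 237 CPM in Lung628, against 171 and 135 CPM in the PTs as a whole. Hmox1 had 81.7 and 65.4 CPM in Lung627 and 155 and 115 CPM in Lung628. The highest decile of Lung628 had 168 CPM of Hmox1, below the 347 and 306 CPM of the PTs.

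The metallothioneins went opposite ways in the lungs. Mt1 had 309 CPM in the rich and 205 CPM in the poor quartile of Lung627, and 584 and 766 CPM in Lung628. Mt2 had 267 and 104 CPM in Lung627, and 502 and 578 CPM in Lung628. In the highest decile of Lung628, with 2802 CPM of tumor markers, Mt1 had 539 CPM and Mt2 439 CPM, both under the level of either PT. Slc7a11 likewise had 9.30 CPM there, under the 34.9 and 23.6 CPM of the PTs.

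**Figure D3:**
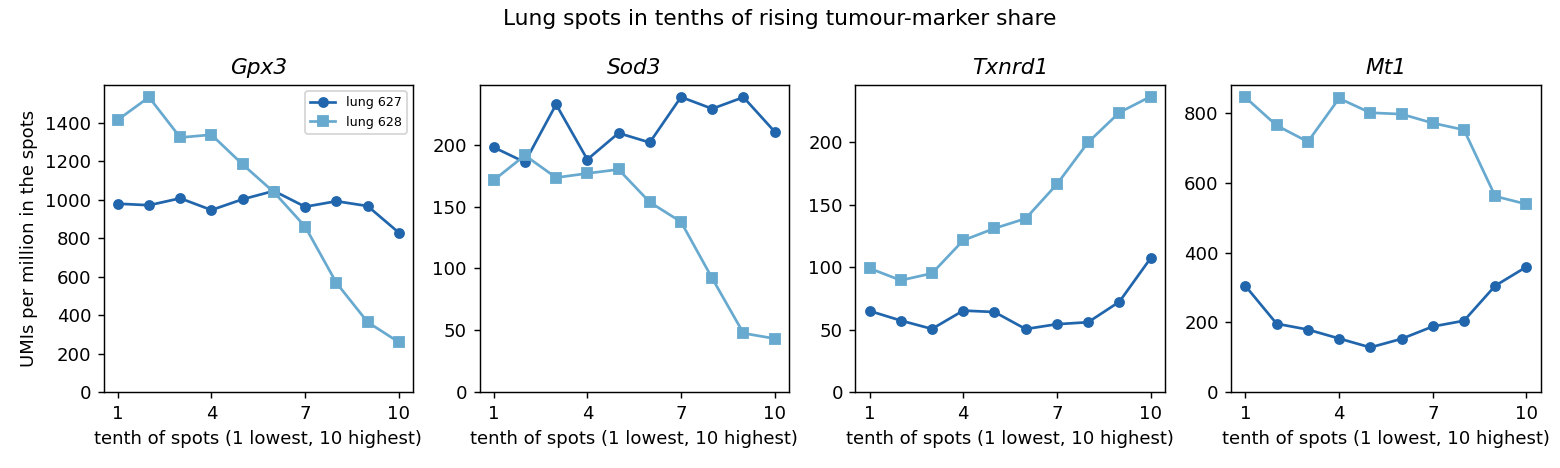
Level of Gpx3, Sod3, Txnrd1 and Mt1 in deciles of lung spots ordered by their share of tumor-marker UMIs, from 1 (lowest) to 10 (highest), in CPM. Circles are Lung627, where the first 6 deciles hold no tumor-marker UMI and are ordered by depth, and squares are Lung628. In Lung628 Gpx3 went from 1414 to 260 CPM while Txnrd1 went from 99.2 to 237 CPM.

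No gene of the set was called in this comparison. The edgeR log2 fold change was 0.84 ± 0.55 (SE, adjusted p = 0.741) for Txnrd1, -1.07 ± 0.64 (adjusted p = 0.741) for Gpx3 and -0.51 ± 0.73 (adjusted p = 0.797) for Sod3. Over 12326 genes edgeR called 0 in either direction (0%), 239 having an unadjusted p under 0.05, and DESeq2 called 1. With the mouse as a block edgeR called 2 higher (0.0162%) and 0 lower, and no gene of the set. The lowest blocked adjusted p among the 10 was 0.34, for Txnrd1. By direction alone, 2 of the 10 genes were higher in the rich quartile of both lungs, 2 lower and 6 opposite, beside 45.0% and 25.9% of 12279 genes. The median spot held 5916 UMIs in the rich and 3511 in the poor quartile of Lung627, and 15937 and 7042 in Lung628, and the part of depth was not tested. From the shallowest to the deepest quartile of Lung628 spots Gpx3 went from 1294 to 462 CPM and Sod3 from 172 to 71.5 CPM. Mt1 went from 1159 to 558 CPM and Txnrd1 from 119 to 210 CPM there. In Lung627 Gpx3 went from 985 to 961 CPM, Sod3 from 209 to 224 CPM, Mt1 from 269 to 219 CPM and Txnrd1 from 65.7 to 66.1 CPM. All spots of the poor quartile of Lung627 held no tumor-marker UMI, and among such ties the shallowest were ranked lowest. Of 55 pathway genes tested edgeR called 0 with or without the block, and their median log2 fold change was -0.09, all genes having 0.03.

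Airways, lined by club and ciliated cells that metabolize inhaled compounds, were examined as the 5% of lung spots with the highest share of UMIs on the 5 of 7 airway markers matched in the tables (Scgb3a2, Bpifa1, Cyp2f2, Foxj1 and Tppp3). These were 85 spots in Lung627 and 139 in Lung628, set against all other spots. Mt1 had 576 CPM in airway-rich and 184 CPM in other spots of Lung627, and 1763 and 671 CPM in Lung628. Gclc had 173 and 82.6 CPM in Lung627, and 177 and 85.2 CPM in Lung628. Sod3 had 368 and 207 CPM in Lung627, and 366 and 110 CPM in Lung628. Each of the 3 was higher in airway-rich spots of both lungs, Mt1 by 3.13 and 2.62 times, Gclc by 2.10 and 2.08 times and Sod3 by 1.78 and 3.32 times. The median spot held 6901 UMIs in airway-rich and 6537 in other spots of Lung627, and 6688 and 9342 in Lung628. In Lung628 Mt1 and Sod3 were also higher in shallow than in deep spots, as given above. The part of depth in the airway result was not tested.

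Whether these differences passed the test depended on the block. With the mouse as a block edgeR called all 3 higher, with log2 fold changes of 1.38 ± 0.37 (SE, adjusted p = 0.00791) for Mt1, 0.93 ± 0.27 (adjusted p = 0.0162) for Gclc and 1.15 ± 0.32 (adjusted p = 0.0104) for Sod3. In the same model 10.5% of 13125 genes were called higher and 2.26% lower. Without the block edgeR called 0 of the 13125 genes (0%), 1436 having an unadjusted p under 0.05, and the adjusted p was 0.641 for Mt1, 0.266 for Gclc and 0.545 for Sod3. DESeq2 without the block called 751 genes, with adjusted p-values of 0.335, 0.408 and 0.379 for the 3 genes.

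Mt2 had 254 and 126 CPM in airway-rich and other spots of Lung627, and 1115 and 578 CPM in Lung628, with a blocked edgeR adjusted p of 0.0992. Hmox1 was lower in airway-rich spots of both lungs, with 54.5 and 72.4 CPM in Lung627 and 88.6 and 131 CPM in Lung628, and a blocked edgeR adjusted p of 0.172. Gclm, the partner of Gclc, had 124 and 108 CPM in Lung627 and 106 and 115 CPM in Lung628. The remaining 4 genes had blocked edgeR adjusted p-values from 0.518 to 0.74. In all, 5 of the 10 genes were higher in both lungs and 2 lower, beside 36.7% and 27.3% of 12811 genes.

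Airway-rich spots also held more smooth muscle markers, with 2126 and 447 CPM in Lung627 and 2193 and 272 CPM in Lung628, and more fibroblast markers, with 1431 and 808 CPM in Lung627 and 2374 and 1806 CPM in Lung628. Adipose markers were higher too, with 121 and 48.3 CPM in Lung627 and 573 and 66.1 CPM in Lung628, as were cardiac markers, with 502 and 279 CPM and with 732 and 448 CPM. Neutrophil markers were lower, with 45756 and 78755 CPM in Lung627 and 27724 and 31377 CPM in Lung628. So were tumor markers, with 69.3 and 118 CPM and with 454 and 1238 CPM, alveolar markers, with 9808 and 13222 CPM and with 5254 and 7480 CPM, and endothelial, hypoxia and proliferation markers. The part of these in the results was not tested. Of 56 pathway genes tested with the block, edgeR called 11 higher and 1 lower, beside 10.5% and 2.26% of all genes, and 0 without it. The largest rises were those of Gpx2, an epithelial glutathione peroxidase, Mt3, another metallothionein, and Gsta4, a transferase that conjugates lipid aldehydes. Gsta4 had 267 and 31.3 CPM in Lung627 and 326 and 73.5 CPM in Lung628 (blocked edgeR log2 fold change 2.47 ± 0.29, adjusted p = 3.47e-08). Gpx2 had 26.4 and 2.19 CPM in Lung627 and 32.2 and 0.79 CPM in Lung628 (4.39 ± 0.58, edgeR adjusted p = 3.43e-07). Mt3 had 14.9 and 1.62 CPM, and 8.06 and 1.504 CPM (2.66 ± 0.66, edgeR adjusted p = 0.00399). The airway-rich spots held 605741 UMIs in Lung627 and 992903 in Lung628, so the levels of Mt3 and Gpx2 there rested on few UMIs. Chac1, which degrades glutathione, was the 1 of the 56 called lower, a share no higher than that of all genes, with 4.95 and 11.1 CPM in Lung627 and 24.2 and 92.8 CPM in Lung628 (edgeR adjusted p = 0.000778 with the block and 0.703 without). With the block the median log2 fold change of the 56 was -0.01 and that of all genes -0.09.

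The levels were then described, with no test, in the 10% of spots richest in each of 15 marker lists. In both lungs the metallothioneins were higher in spots rich in connective and contractile tissue markers. The log2 ratio of Mt1 in fibroblast-marker-rich spots over all others was 1.96 in Lung627 and 1.44 in Lung628, and in smooth-muscle-marker-rich spots it was 1.73 and 1.38. It was 1.27 and 1.63 in adipose-marker-rich spots, a list of only 52.2 and 82.7 CPM in these lungs, and 1.06 and 1.39 in cardiac-marker-rich spots, whereas in neutrophil-marker-rich spots it was -0.99 and -0.67. Mt2 followed, with 2.03 and 1.51 for fibroblast and -1.71 and -0.96 for neutrophil markers. In the PTs the same fibroblast contrast gave -0.26 and 0.46 for Mt1, so that PT628 had the sign of the lungs and PT627 did not.

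Sod3 was also higher in these spots of the lungs, with log2 ratios of 1.05 and 1.53 for smooth muscle and 1.14 and 0.95 for fibroblast markers. In the 10% of spots richest in alveolar markers Sod3 was higher by 0.31 in Lung627 and 0.88 in Lung628, and Gpx3 by 0.39 and 1.18. For smooth muscle Gpx3 was lower by 0.72 in Lung627 but higher by 0.51 in Lung628. Gclc had its highest common ratio for airway markers, 1.03 and 0.78. Gclm varied least of the 10 genes, with ratios between -0.32 and 0.31 for all 15 lists in both lungs. Hmox1 in the PTs was higher in the neutrophil-marker-richest 10%, by 0.72 in PT627 and 0.33 in PT628, and in the hypoxia-marker-richest 10%, by 0.53 and 0.31.

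**Figure D4:**
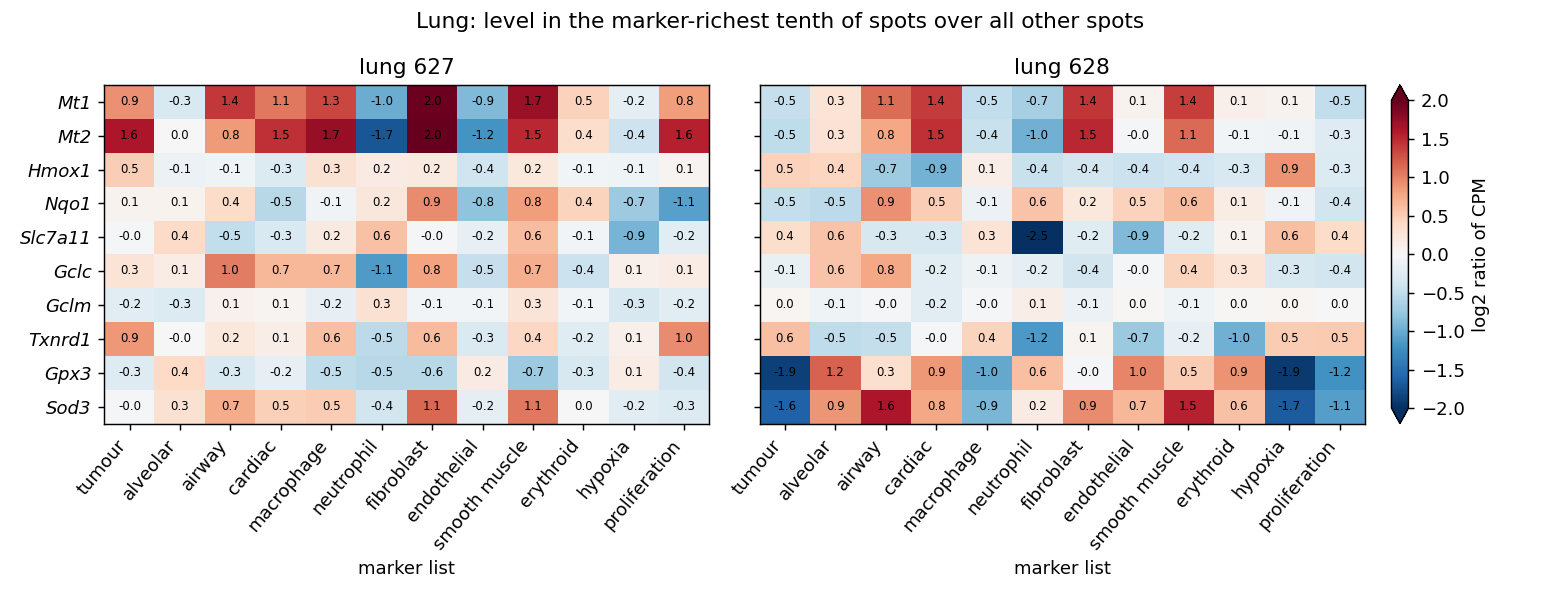
Log2 ratio of the CPM of each gene in the 10% of lung spots richest in a marker list over the CPM in all other spots, for Lung627 (left) and Lung628 (right) and the 12 lists with at least 100 CPM in both lungs. Red is higher and blue lower in the marker-rich spots, and the colors end at 2 and -2. Mt1 and Mt2 were higher in fibroblast-, smooth-muscle- and cardiac-marker-rich spots of both lungs.

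On the array the metallothioneins lay, by eye, in patches and not at a uniform level, which was not tested. In PT627 the highest spots lay together at the top edge and in PT628 along the right edge. In Lung627 they lay in the upper right corner, and in Lung628 in bands and islands. The 10% of spots with the highest Mt1 began at 3221 CPM in PT627, 4532 CPM in PT628, 577 CPM in Lung627 and 1656 CPM in Lung628, so that the highest 10% of spots of Lung628 began above the median spot of PT627 and below that of PT628. These spots held 5.81% of all UMIs in PT627, 21.1% in PT628, 8.67% in Lung627 and 6.34% in Lung628. They were thus shallower than the average spot in all sections but PT628, and the part of depth in the patches was not tested.

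**Figure D5:**
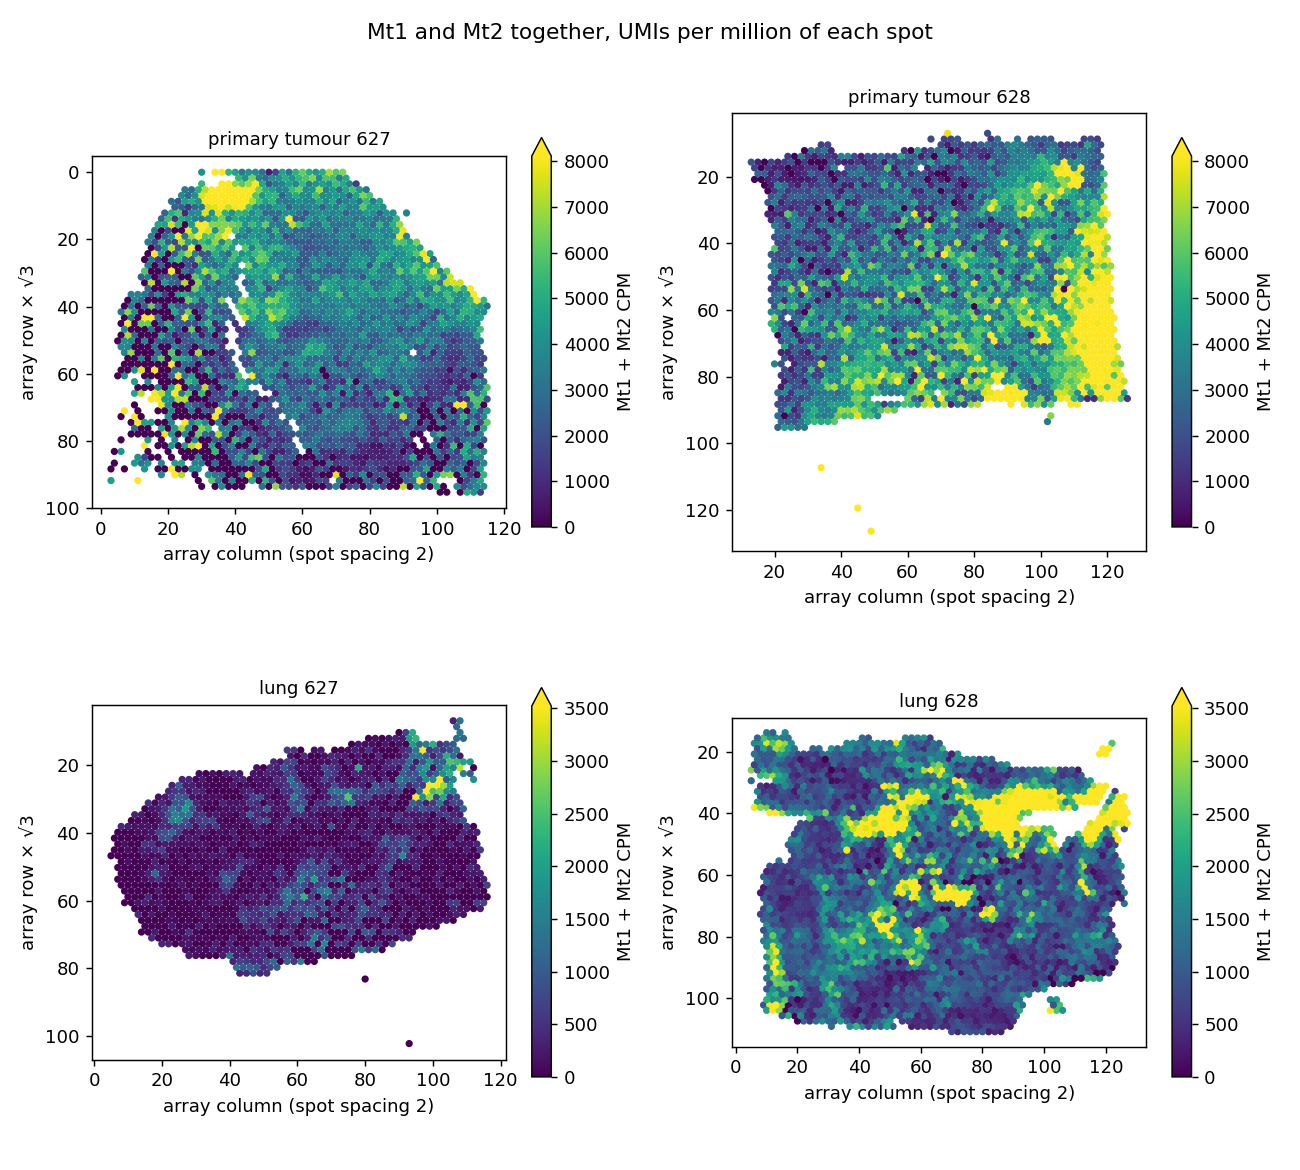
Each dot is a spot at its place on the array (column across, row times √3 down, so that the array is to scale), colored by the summed CPM of Mt1 and Mt2 in that spot. Each tissue has 1 color scale, ending at the 95th percentile of its spots (8118 CPM for PTs, 3523 CPM for lungs). Bright spots lie together at an edge of each PT and in bands of Lung628, and single bright spots also occur in the sparse left flank of PT627.

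Over spots within a section, the pair of Mt1 and Mt2 had the highest Pearson r of the 45 pairs, on log2 of UMIs per 10000 UMIs of the spot plus 1. It was 0.37 in PT627, 0.35 in PT628, 0.44 in Lung627 and 0.58 in Lung628. When spots too shallow for it were left out and the others were thinned to 1000 UMIs, these values were 0.16, 0.20, 0.16 and 0.26. The spots left out were 886 of 2490 in PT627, 56 in PT628, 10 in Lung627 and 5 in Lung628. The thinned values therefore differ from the first ones by the spots used as well as by thinning. Spots of a section share its library and differ in depth, and thinning also adds sampling noise. The genes also differed in how often they were seen. In PT627 Mt1 had a UMI in 78.2% and Mt2 in 76.1% of spots, but Nqo1 in 4.78%. Sampling noise lowers r for rarely seen genes, and its part in the ranking of pairs was not tested. Gpx3 and Sod3 had 0.30 in Lung628 and 0.00 in Lung627, and Txnrd1 and Gpx3 had -0.28 in Lung628 and -0.01 in Lung627. After thinning these pairs had 0.057 and -0.041 in Lung628. The other 44 pairs had mean r over the sections from -0.06 to 0.12, and from -0.03 to 0.04 after thinning.

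Among 481 genes with at least 2000 UMIs in each section, those with the highest mean r over the 4 sections were named for each gene, without thinning. For Mt1 they were Atp2a2 (0.24), Igfbp4 (0.24) and Mgp (0.23), Mt2 itself missing the UMI minimum in Lung627 with 1480 UMIs. For Mt2 they were Mt1 (0.43), Ctsl (0.28) and Mgp (0.26). For Gpx3 they were Wfdc17, S100a9 and S100a8, genes of neutrophils and other myeloid cells, with r of 0.62, 0.66 and 0.66 in Lung628, 0.28, 0.29 and 0.25 in Lung627 and between -0.04 and 0.07 in the PTs. For Txnrd1 they were Lmna (0.19), Pabpc1 (0.18) and Hspa5 (0.18), for Sod3 Mgp (0.13), Mt1 (0.12) and Igfbp7 (0.11), and for Hmox1 Ier3 (0.16), Thbs1 (0.15) and the ferritin heavy chain Fth1 (0.15). For Gclc they were Wfdc2 (0.14), Npc2 (0.14) and Thbs1 (0.12), and for Gclm Eif5 (0.11), Cap1 (0.11) and Cd47 (0.11). The values for Slc7a11 and Nqo1 were all under 0.07.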

How the data were processed

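Space Ranger 2.0.0 with build mm10 is named in the submitters' processing notes, and the counts the authors deposited are UMIs of each gene in each spot, from 10x Visium mouse probe libraries of 4 sections, with no normalization, and per the file headers each spot's array row and column. Probe counting reads a fixed part of each transcript, so levels were compared between spots and sections, not between genes. From these, spots with more than 200 genes were kept (9339 of 9445), and UMIs were summed per section or per class of spots. Spots were ranked within a section by the share of UMIs on a marker list. Sums were tested with edgeR 4.0.16 (quasi-likelihood, TMM, filterByExpr, Benjamini-Hochberg over all genes, threshold 0.05), with 2 sums per class, 1 per mouse, since spots are not replicates. DESeq2 1.42.0, the mouse as a replicate block and other spot filters and rankings were alternatives. The mouse number pairs the sums, because it names the animal. The correlation of same-mouse deviations was 0.85 for the PT quartiles, 0.44 for the lung quartiles, 0.50 for the airway classes and -0.29 between lung and PT. The scripts were tested on simulated data. The genes, gene lists and marker lists were chosen with earlier results of these data known. Named genes were the 10 members, per contrast the 3 largest rises and falls of the pathway list past the threshold with or without the block and of 1 direction in both mice, and the 3 genes with the highest mean r. With 2 mice, p-values rest on the spread between 2 sections per class.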

Additional observations from a re-analysis of the deposited data

Results flagged for a closer look

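For 8 marker lists with at least 100 CPM in every section, 80 combinations of gene and list were compared between tissues, and 8 had log2 ratios (marker-richest 10% of spots over all others) of one sign in both lungs and of the other sign in both PTs. The share of all genes with such signs was not computed, so nothing is read from this count, and several of the ratios were small. These differences between tissues were not tested, and the value given last is the mean of the lungs minus the mean of the PTs. With macrophage markers Slc7a11 had 0.18 and 0.27 in the lungs and -0.17 and -0.22 in the PTs (0.42). With macrophage markers Gpx3 had -0.50 and -1.02 in the lungs and 0.24 and 0.61 in the PTs (-1.19). With fibroblast markers Txnrd1 had 0.64 and 0.06 in the lungs and -0.28 and -0.13 in the PTs (0.55), and Gpx3 had -0.56 and -0.05 against 0.56 and 1.04 (-1.10). With endothelial markers Slc7a11 had -0.17 and -0.88 in the lungs and 0.61 and 0.96 in the PTs (-1.31), and Gclc had -0.46 and -0.03 against 0.03 and 0.09 (-0.31). With hypoxia markers Mt2 had -0.41 and -0.07 in the lungs and 0.30 and 0.76 in the PTs (-0.77), and Txnrd1 had 0.11 and 0.50 against -0.14 and -0.02 (0.38). Gpx3 lay under the receptor-gene background in PT628, and Slc7a11 near it. Slc7a11 rested on 78 UMIs in all of Lung627. The hypoxia list was made up of unlike genes in the sections. Vegfa gave 304 and Car9 2.16 of its 680 CPM in Lung627, while the PTs had 139 and 133 CPM of Vegfa and 840 and 853 CPM of Car9.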

How the results depend on the processing

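Of 499 values under alternatives, 413 were labeled as kept, 35 moved, 16 passed the threshold only under the alternative and 35 turned direction. Tested values were kept if direction and side of the threshold held. Counts of genes called were judged by their ratio to the main count. Ratios of lung over PT and the mean r were kept if within 1 SD of the main value. With 1 mouse left out, ratios within a tissue were judged by direction alone, and those of lung over PT were kept by construction. The combined settings with the mouse as a replicate block and the ranking with ties by barcode were chosen after seeing the data. The cause of each shift was not tested. With 2 mice, leaving one out leaves 1 sum per class and a value with no test.

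Between lung and PT 1139 genes were called, and 1817 with the replicate block, 2644 with DESeq2, 2022 without the filter on low counts and 681 with spots of at least 1000 UMIs. Between tumor-marker quartiles of the lungs 0 were called, and 2 with the block, 1 with DESeq2, 5 without the filter and 20 with the block and wider classes. Between hypoxia-marker quartiles 0 were called, and 85 with the block and 20 with DESeq2. With the block these were 18 for wider classes, 66 for neighbor averages, 41 for at least 1000 UMIs and 52 without Car9. For airway-rich spots 0 were called, and 1680 with the block, 751 with DESeq2, 730 without the filter, 329 with neighbor averages and 433 with at least 1000 UMIs. With the block these were 1715 for the highest 10%, 2053 for neighbor averages and 2074 for at least 1000 UMIs. Under the block with any of these 3, Mt1, Gclc and Sod3 were called by edgeR. Mt2 was called with the block for neighbor averages (edgeR adjusted p = 0.00909) and at least 1000 UMIs (0.0358). Outside the airway comparison the block called none of the 10 genes in the comparisons within a tissue. The mean r of Mt1 and Mt2 was 0.43 before thinning. It was 0.19 once too shallow spots were left out and the others thinned to 1000 UMIs, and these choices were not separated.

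The turned directions lay mostly in the tumor-marker comparison of the lungs. There Mt1 (log2 -0.27) was at 0.043 with alveolar markers in place of tumor markers, and with the block at 0.36 for neighbor averages, 0.40 for alveolar markers and 0.11 for ties by barcode. Mt2 (0.02) was at -0.0028 with DESeq2 and -0.027 with alveolar markers, but between 0.34 and 1.04 in the fits with the block, the highest with neighbor averages (edgeR adjusted p = 0.465), and Hmox1 (0.23) at -0.0016 with alveolar markers. Nqo1 (0.0049) was at -0.058 with the block, -0.014 with DESeq2, -0.10 with neighbor averages and -0.16 with ties by barcode. With the block it was at -0.042 for wider classes, -0.15 for neighbor averages, -0.052 for at least 1000 UMIs, -0.0097 for alveolar markers and -0.21 for ties by barcode. Slc7a11 (-0.31) was at 0.040 with neighbor averages and 0.037 with ties by barcode, and with the block at 0.042 and 0.0070. Gclm (-0.33) was at 0.017 with alveolar markers and 0.0090 with the block added. In the PTs Gpx3 (0.34) was at -0.019 without Car9.

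With 1 mouse left out, the tumor-marker log2 ratios ran from -0.39 to 0.59 for Mt1, -0.21 to 1.36 for Mt2, -0.31 to 0.55 for Nqo1, -0.89 to 0.44 for Slc7a11, -0.56 to 0.042 for Gclc and -1.76 to 0.25 for Sod3. The hypoxia ratios ran from -1.41 to 0.26 for Nqo1, -1.10 to 0.016 for Slc7a11 and -0.10 to 0.18 for Txnrd1. The airway ratios ran from -0.12 to 0.20 for Gclm, -0.43 to 0.069 for Txnrd1 and -0.41 to 0.15 for Gpx3.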

Other observations

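In Lung628 the hypoxia-marker-richest 10% of spots had log2 ratios over all other spots of 0.89 for Hmox1, -1.92 for Gpx3 and -1.67 for Sod3, while in Lung627 they were -0.08, 0.15 and -0.23. These values have no replicate beyond the section named. Vegfa gave 304 and Car9 2.16 of the 680 CPM of the hypoxia list in Lung627, against 85.6 and 96.3 of 839 CPM in Lung628. The list thus ranked the spots of these lungs by unlike genes.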
